A study of Homo sapiens with 9 samples.

Results

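Long noncoding RNAs (lncRNAs) that were well expressed in SKOV3 ovarian cancer cells were compared between libraries made after lentiviral transduction with a control hairpin and with hairpins against STXBP6. The set was every gene whose transcript types in the deposited table included lncRNA and not protein coding, outside chromosome Y, with a mean of at least 5 FPKM over the 9 libraries. FPKM is a level of fragments corrected for transcript length and sequencing depth. The rule kept 99 of the 36785 genes of the table, out of 9795 lncRNA genes at any level, and 40 of the 99 reached 10 FPKM. Members were thus chosen by their mean FPKM over all 9 libraries, and no contrast between groups was used.

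The study profiled polyadenylated RNA from SKOV3 (a long-established ovarian cancer line) in 3 groups of 3 libraries, all given lentiviral transduction. The shNC libraries carried the genotype label NC, the sh1 libraries the label STXBP6 knockdown_1 and the sh3 libraries the label STXBP6 knockdown_3. Whether libraries of the same label stem from separate cultures is not stated, and the p-values therefore cover only the spread between these libraries, which may be technical. In bulk RNA, fewer cells that make a transcript and less of it per cell cannot be told apart. Libraries held between 57654447 and 69264400 counts. STXBP6 itself had 4, 0 and 15 counts in the shNC libraries, 7, 4 and 26 in those labelled sh1 and 20, 31 and 18 in those labelled sh3. Its log2 change was 0.87 in sh1 and 1.81 in sh3 (edgeR adjusted p = 0.558 and 0.225), upwards and so against the labels, and all 3 sh3 counts lay above all 3 shNC counts. The targeted gene therefore does not check the labels, and every direction below is between libraries as labelled. Of the markers of other cell types, no endothelial marker (0 of 4) reached 1 FPKM in any library, and 1 of 6 leukocyte and 3 of 5 fibroblast markers did, against 6 of 7 epithelial markers. The summed epithelial marker level was 1051 to 1165 FPKM in shNC, 687 to 717 in sh1 and 1102 to 1148 in sh3, that of leukocyte markers 13.7 to 15.04, 10.4 to 11.3 and 17.5 to 18.7, and that of fibroblast markers 14.9 to 18.2, 16.3 to 16.9 and 12.1 to 13.1. Of the 5 fibroblast markers, 3 were called lower and 1 higher in sh1, and 2 lower and 1 higher in sh3. Among all genes tested, 18.8% were lower and 19.9% higher in sh1, and 12.4% and 14.4% in sh3. The part of these differences in the results below was not tested.

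LncRNAs are transcripts that are not translated into a known protein. Some stay in the nucleus and organise RNA-protein bodies, some act in the cytoplasm by binding proteins or microRNAs, and some are precursors whose introns release small nucleolar RNAs (snoRNAs), the guides for chemical modification of ribosomal RNA. Others start beside, or run antisense to, a coding gene. Many have no assigned role, and 45 of the 99 members carried only an Ensembl identifier.

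As a set, the members took a smaller share of the library under either of the labels sh1 and sh3. They held 0.659, 0.631 and 0.664% of all counts in the shNC libraries. The share was 0.484, 0.486 and 0.519% in the sh1 libraries and 0.540, 0.559 and 0.528% in the sh3 libraries. All 6 libraries labelled sh1 or sh3 lay below all 3 controls, and the sh1 libraries lay below the sh3 libraries. Scaled to library size by the trimmed mean of M-values (TMM) and given as CPM (counts relative to the scaled library size), the members summed to 6241 to 6546 CPM in shNC, 4882 to 5265 in sh1 and 5294 to 5612 in sh3. NEAT1 made up 15.3% of the difference between shNC and sh1, LINC02582 14.9% and MALAT1 13.3%. Between shNC and sh3 the largest contributions came from MALAT1 (21.6%), NEAT1 (20.2%) and NORAD (13.9%).

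Genes were then tested one by one with edgeR's quasi-likelihood test, with p-values adjusted over all 21296 genes tested, and a gene was called at an adjusted p under 0.05. All 99 members entered the test; the lowest count of any member in any library was 59. In the libraries labelled sh1, 57 members were called, against a background of 38.7% of all genes tested. Of these, 18 were higher (background 19.9%) and 39 were lower (background 18.8%). In the libraries labelled sh3, 43 members were called (background 26.9%), 18 higher (background 14.4%) and 25 lower (background 12.4%). The median log2 change of the members was -0.20 in sh1 and -0.04 in sh3, and that of all genes tested was -0.02 and -0.01. Among all 7019 genes that reached a mean of 5 FPKM, calls were mostly the other way: 39.4% were higher and 24.9% lower in sh1, with a median of 0.06. In sh3, 48.7% of these 7019 genes were called, 31.0% higher and 17.7% lower, so that fewer members than genes of this level were called in all and higher, and more were called lower. The 4023 tested lncRNA genes below the threshold had a median of -0.18 in sh1 and -0.10 in sh3, with 3.46% higher and 9.62% lower in sh1. These counts and medians describe the list and carry no test of their own.

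Both hairpins were compared with the same 3 control libraries, so their calls are not independent of each other. Called higher with both were 11 members (background 10.6%), and called lower with both were 23 (background 8.43%). In every one of these 34 members the 3 control values lay outside the range of the 6 sh1 and sh3 values. This separation comes from the same values as the calls and adds no support to them. Its share over all genes was not computed. A further 21 members were called in sh1 alone, 7 in sh3 alone and 35 in neither. Compared directly with sh1, the sh3 libraries differed in 34 members (background 25.9%), with 25 higher (background 12.9%) and 9 lower (background 13.0%). Among the 7019 genes of at least 5 FPKM, 24.1% were higher and 12.8% lower with both labels, and 45.2% differed between the hairpins, 21.3% higher and 23.9% lower in sh3. Of the members called in sh1 alone, 12 of 21 also differed between the hairpins, and of those called in sh3 alone, 5 of 7 did. For calls in sh1 alone, in sh3 alone or in neither, and for these overlaps, the shares over all genes were not computed. Nothing particular to the members is read from them.

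**Figure D1:**
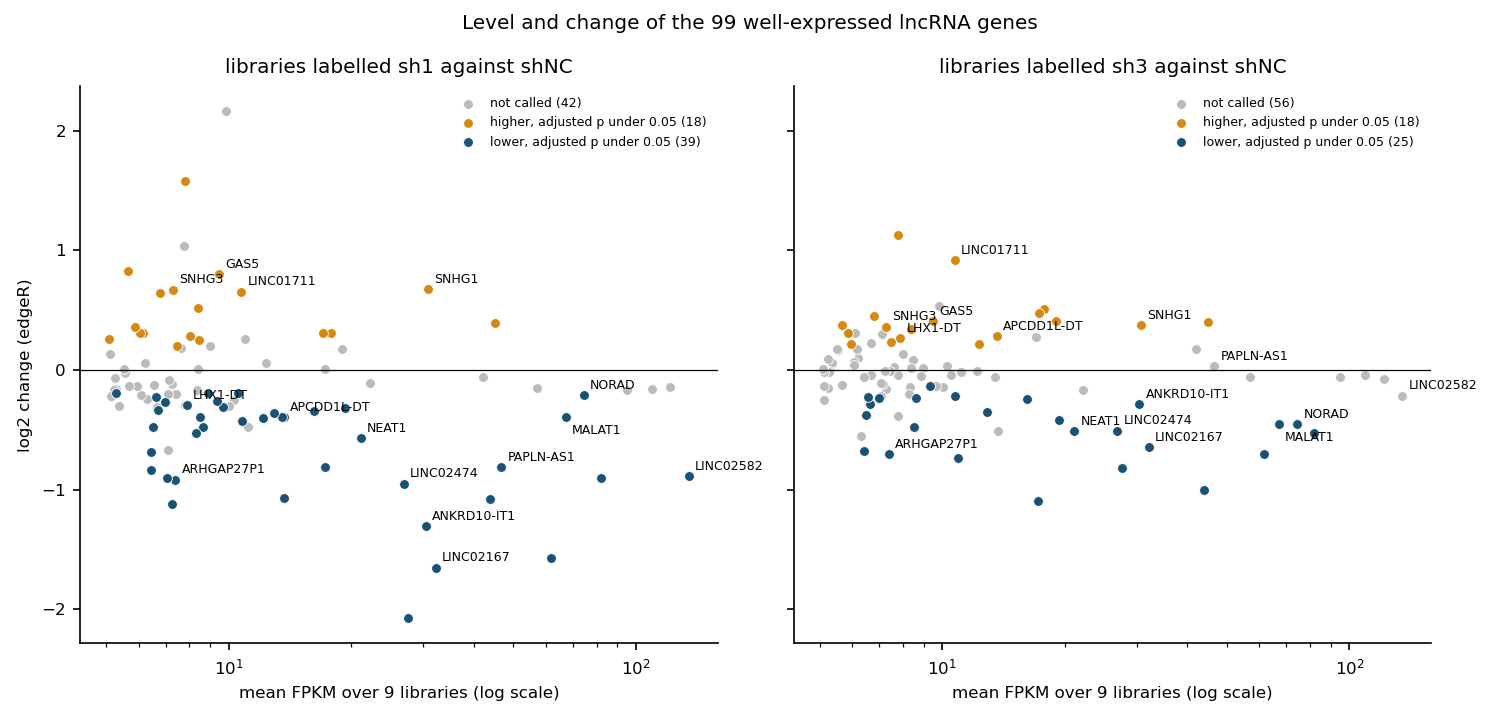
Mean level over the 9 libraries (FPKM, log axis) against the log2 change in libraries labelled sh1 (left) and sh3 (right) relative to shNC; each point is 1 of the 99 members, coloured by edgeR call. In both panels the falls reach to the most abundant members, with MALAT1 and NEAT1 below 0, while the labelled rises include SNHG1, GAS5 and LINC01711.

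Of 19 lncRNAs listed as nuclear or architectural, a list that also holds RNAs known from the cytoplasm, 5 were members. MALAT1, NEAT1, NORAD and OIP5-AS1 were called lower with both labels, and CHASERR was called higher in sh3 (lower among all genes tested: 18.8% in sh1 and 12.4% in sh3). Over the 17 genes of the list that were tested, members included, 6 were lower and 1 higher in sh1, and 5 were lower and 3 higher in sh3. MALAT1, a nuclear RNA that gathers at speckles rich in splicing factors, lies at chr11:65497688-65506469 (GRCh38, plus strand). It had 798, 788 and 746 CPM in shNC, 591, 578 and 603 in sh1 and 568, 583 and 549 in sh3. The shNC values lay above all 6 others, and the sh1 and sh3 values overlapped. MALAT1 fell by 0.40 (SE 0.033) on the log2 scale in sh1 and by 0.46 (SE 0.033) in sh3, with edgeR adjusted p of 1.95e-06 and 1.66e-06. Per length, this was 81.5 ± 3.1 FPKM (SD, n = 3) in shNC against 60.6 ± 1.1 in sh1 and 59.3 ± 1.6 in sh3.

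Selection on oligo(dT), as the labels describe, bears on MALAT1. Its mature end is not a conventional poly(A) tail, and an encoded run of A lies close to that end. A run of at least 13 bases is in 6.39% of the 8093 lncRNA genes of the table that have a GENCODE 29 transcript. It is in 15.9% of the 88 members searched, and NEAT1 holds a run of 22 bases. The longest run of MALAT1, 13 bases, is shown in capitals with 40 bases on each side. These are positions 8297 to 8389 of its 8708-base GENCODE 29 transcript.
MALAT1: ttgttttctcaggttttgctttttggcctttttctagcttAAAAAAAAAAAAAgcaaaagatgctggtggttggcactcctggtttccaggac
Whether selection differed between libraries was not tested.

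NEAT1, the scaffold RNA of nuclear paraspeckles and the neighbour of MALAT1 at chr11:65422774-65445540, was also lower with both labels. Counts were per gene, so NEAT1 transcripts of different length were not told apart. Which of them fell was not tested. Its CPM was 678, 633 and 667 in shNC, 445, 441 and 447 in sh1 and 468, 478 and 441 in sh3. All 6 sh1 and sh3 values lay below the controls. The fall was 0.57 (SE 0.035) on the log2 scale in sh1 and 0.51 (SE 0.035) in sh3 (edgeR adjusted p = 1.61e-07 and 1.03e-06), and sh3 did not pass the test against sh1 (adjusted p = 0.282). Of 14 genes for paraspeckle proteins, 8 were higher and 1 lower in sh1, and 4 were higher and 1 lower in sh3. The member of that list that fell with both was PSPC1, a core paraspeckle protein, by 0.41 and 0.32 on the log2 scale. The median log2 change of the 14 genes was 0.12 in sh1 and 0.015 in sh3. Among genes of at least 5 FPKM, 39.4% were higher in sh1 and 31.0% in sh3, and the sh3 count is near that share.

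NORAD, a cytoplasmic RNA known to be induced by DNA damage and needed for stable chromosome numbers, separated the hairpins as well. It lies at chr20:36045618-36051018 on the minus strand. Its CPM was 507, 509 and 501 in shNC, 445, 437 and 427 in sh1 and 359, 378 and 372 in sh3, 3 groups without overlap. The log2 fall was 0.21 (SE 0.028) in sh1 and 0.45 (SE 0.028) in sh3 (edgeR adjusted p = 7.01e-05 and 4.86e-07). The difference between sh3 and sh1 was -0.24 on the log2 scale (adjusted p = 7.27e-05).

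The remaining 2 members of the list are OIP5-AS1 and CHASERR. OIP5-AS1, a cytoplasmic RNA known for binding the microRNA miR-7, had 141.7, 137.7 and 143.7 CPM in shNC, 116.7, 117.6 and 118.6 in sh1 and 130, 123 and 131 in sh3. It fell by 0.26 (SE 0.032) and 0.14 (SE 0.032) on the log2 scale (edgeR adjusted p = 4.68e-05 and 0.0075), with no overlap between the 3 groups. CHASERR, which represses its neighbour CHD2 in cis, had 40.5, 40.5 and 41.6 CPM in shNC, 37.4, 39.4 and 34.8 in sh1 and 45.9, 45.7 and 51.4 in sh3. It rose in sh3 by 0.22 (SE 0.059; adjusted p = 0.0162) and did not pass the test in sh1 (-0.14, adjusted p = 0.0927). Scaled by library totals it was called lower in sh1 (-0.17, adjusted p = 0.0396). Without sh3 replicate 3 the rise in sh3 was 0.17 and no longer called (adjusted p = 0.0686).

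Of 38 snoRNA host genes listed, 8 were members; 7 of these were higher in sh1 and 4 in sh3, and none was lower. Among all genes of at least 5 FPKM, 39.4% were higher in sh1 and 31.0% in sh3, and among all genes tested 19.9% and 14.4%. SNHG1, whose introns carry several box C/D snoRNAs, was the most abundant. It had 98.7, 105 and 106 CPM in shNC, 162, 166 and 165 in sh1 and 134.2, 134.5 and 132.6 in sh3. The 3 groups did not overlap, with sh3 between shNC and sh1. SNHG1 was 1.60-fold higher in sh1 and 1.30-fold higher in sh3 (log2 0.67 and 0.38, SE 0.032 for both; edgeR adjusted p = 2.4e-08 and 5.9e-06).

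GAS5, a host gene known to accumulate when growth stops and to bind the glucocorticoid receptor, had 35.2, 40.03 and 38.4 CPM in shNC, 65.04, 65.3 and 67.6 in sh1 and 52.2, 50.0 and 48.8 in sh3. The order of the groups was that of SNHG1. The rise was 1.74-fold in sh1 and 1.33-fold in sh3 (log2 0.80 and 0.41, SE 0.051; edgeR adjusted p = 2.34e-07 and 0.00011). SNHG3 had 24.0, 24.7 and 26.5 CPM in shNC, 38.1, 37.6 and 44.1 in sh1 and 34.8, 30.8 and 31.2 in sh3. Its log2 rise was 0.67 and 0.36 (adjusted p = 1.79e-05 and 0.00312). These 3 hosts were lower in sh3 than in sh1, by 0.30, 0.39 and 0.31 on the log2 scale, each past the test.

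SNHG32, a host gene within the major histocompatibility region of chromosome 6, had the opposite order. It had 29.1, 27.1 and 29.7 CPM in shNC, 35.3, 36.4 and 35.0 in sh1 and 41.3, 40.7 and 40.4 in sh3. Its rise was larger in sh3 (log2 0.51) than in sh1 (0.31), and the difference of 0.20 passed the test (edgeR adjusted p = 0.00958). SNHG16, SNHG29 and SNHG6 were called in sh1 and not in sh3, with log2 rises of 0.31, 0.28 and 0.25. Of these, SNHG16 and SNHG29 also differed between the hairpins, whereas SNHG6 did not pass that test (adjusted p = 0.128). The SNHG6 call was lost without shNC replicate 2 (log2 0.20) or sh1 replicate 3 (0.196), and SNHG29 was also called higher in sh3 with DESeq2 (0.14, adjusted p = 0.0385), with a replicate block (0.14, adjusted p = 0.0187), and without shNC replicate 3 (0.18) or sh3 replicate 2 (0.176). SNHG30 stayed at 14.2 to 15.7 CPM in shNC, 13.1 to 15.8 in sh1 and 13.8 to 16.5 in sh3, and was not called.

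Host genes are often said to begin with a run of pyrimidines, the feature of the terminal oligopyrimidine class whose translation follows growth signals, so the start regions of the 4 hosts called with both hairpins are shown. Each line gives 30 bases before and 30 from the RefSeq start (GRCh38.p14): GAS5 at chr1:173869016-173869075 (minus strand), SNHG1 at chr11:62855856-62855915 (minus), SNHG3 at chr1:28505913-28505972 (plus) and SNHG32 at chr6:31834886-31834945 (plus). In the deposited table the gene starts were 173868882 for GAS5, 62855932 for SNHG1, 28505980 for SNHG3 and 31834608 for SNHG32. None of these lies within the stretch shown, so a run at a start other than that of RefSeq would be missed. Capitals mark a run of at least 5 bases of C or T that begins within 10 bases of the RefSeq start.
GAS5: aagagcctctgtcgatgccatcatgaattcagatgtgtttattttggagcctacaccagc
SNHG1: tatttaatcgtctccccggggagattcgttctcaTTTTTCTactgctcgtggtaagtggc
SNHG3: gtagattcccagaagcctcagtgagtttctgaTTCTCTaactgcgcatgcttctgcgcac
SNHG32: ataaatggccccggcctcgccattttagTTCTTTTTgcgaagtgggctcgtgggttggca
Such a run was present in 4 of the 7 hosts with a RefSeq promoter, in 13 of 34 members and in 40.5% of all 35116 promoters, a share near the background, and nothing is read from it. Of 6 other motifs searched on both strands of the 300 bases around the start, CACGTG was in 4 of 34 members (7.26% of all promoters), ACGTG in 9 (21.4%), TTTGAA in 4 (15.2%), TGACTCA in 1 (4.95%), TGATGCA in 0 (2.63%) and GGAAGTG in 5 (11.2%); ACGTG lies within CACGTG.

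Over all 32 snoRNA host genes of the list that were tested, members included, 16 were higher in sh1 and 9 in sh3, and none was lower in either. The largest rise with both hairpins outside the members was that of SNHG7 (log2 1.01 and 0.56). Of the 12 genes for core proteins of snoRNA particles, 10 were higher and 0 lower in sh1, and 7 were higher and 1 lower in sh3. NOP58, a C/D particle protein, rose by 0.45 and 0.22 on the log2 scale and DKC1, the pseudouridine synthase, by 0.45 and 0.35. SNU13 was the one that fell in sh3, by 0.12. Host transcripts are known targets of nonsense-mediated decay, the pathway that removes transcripts with early stop codons; of 15 genes for its factors, 10 were higher in sh1 and 5 in sh3, and none was lower. Of 15 genes of the nuclear exosome and RNA turnover, 11 were higher and 1 lower in sh1, and 6 were higher and 1 lower in sh3. Beside these counts stand the 39.4% of genes of at least 5 FPKM that were higher in sh1 and the 31.0% that were higher in sh3; the decay factors in sh3 are near that share.

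**Figure D2:**
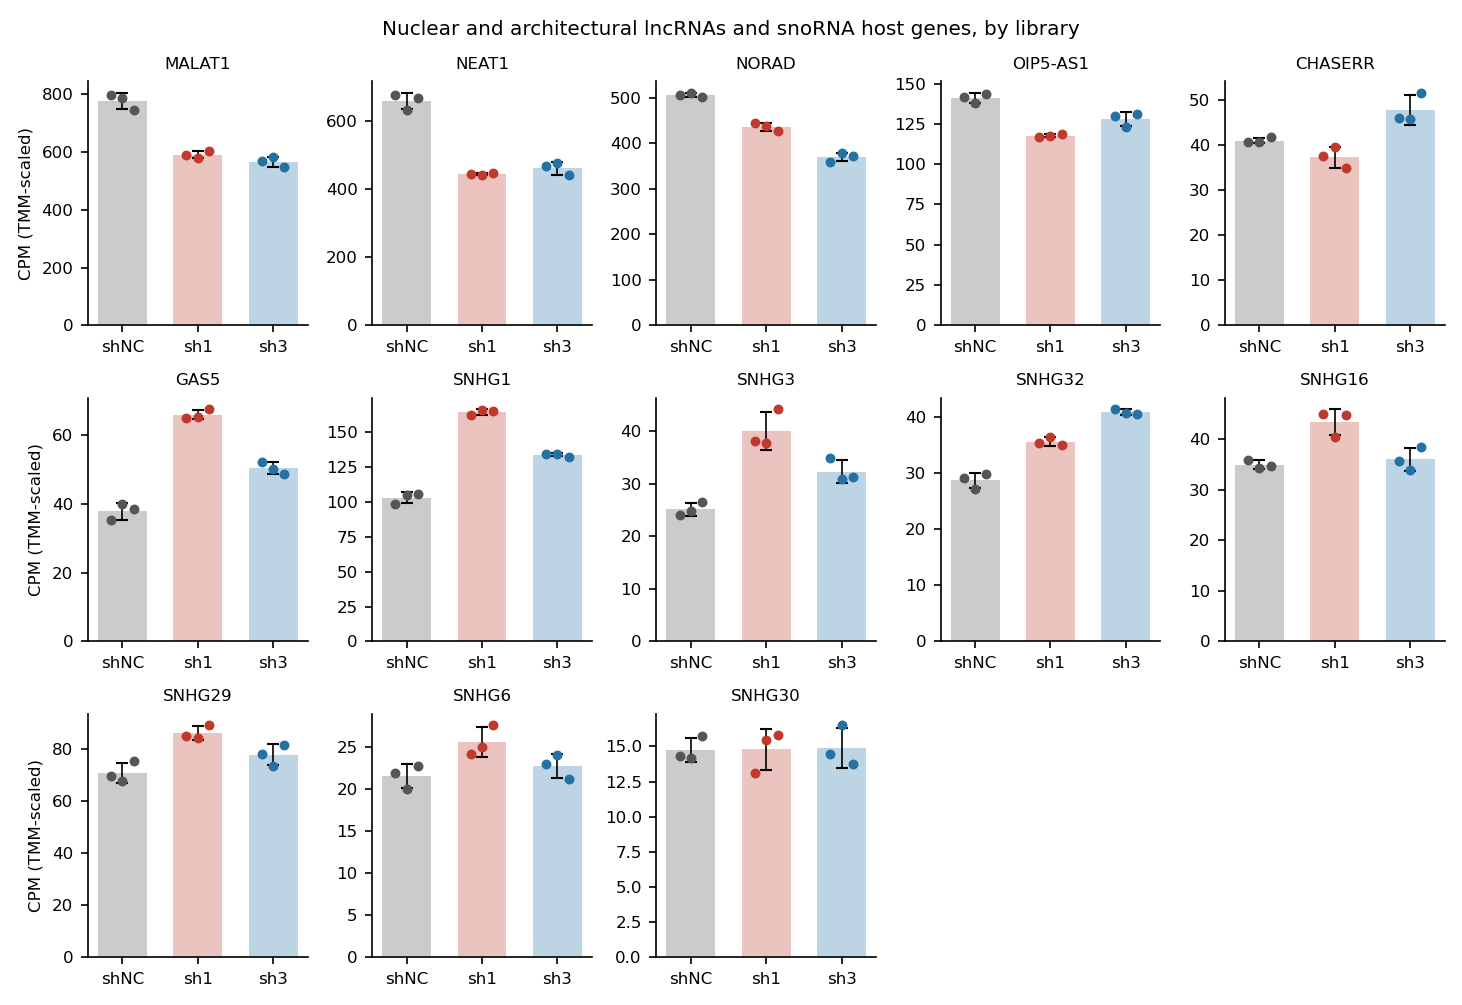
TMM-scaled CPM of 5 nuclear and architectural lncRNAs and 8 snoRNA host genes in each library (points), with the mean (bar, from 0) and SD (line) of the 3 libraries labelled shNC, sh1 and sh3. MALAT1, NEAT1, NORAD and OIP5-AS1 sit lower under both labels, and GAS5, SNHG1, SNHG3 and SNHG32 sit higher.

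The deepest falls in sh1 were in 2 members known only by an identifier or a LINC symbol. LINC02167, at chr16:35743268-35756515, had 103, 95.2 and 121 CPM in shNC, 37.0, 33.1 and 31.5 in sh1 and 71.2, 66.4 and 66.3 in sh3. The 3 groups did not overlap. It was 3.14-fold lower in sh1 and 1.57-fold lower in sh3 (edgeR adjusted p = 4.34e-08 and 0.000121), and it was 2.01-fold higher in sh3 than in sh1. ENSG00000231412, at chr19:43328989-43331544, had 34.4, 30.5 and 42.7 CPM in shNC, 8.999, 8.73 and 7.83 in sh1 and 21.2, 19.8 and 19.8 in sh3. This was the largest fall among the members, 4.21-fold in sh1 and 1.77-fold in sh3 (adjusted p = 6.63e-08 and 0.000154). Over the 9 libraries the log2 CPM of these 2 members correlated at r = 0.999, given as a description of 9 libraries that share the group differences.

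Not all falls were graded in this way. ENSG00000262198, at chr13:22884163-22924602, had 214, 212 and 240 CPM in shNC, 107, 98.0 and 110 in sh1 and 112, 109 and 111 in sh3. It was 2.11-fold lower in sh1 and 2.01-fold lower in sh3 (edgeR adjusted p = 2.85e-08 and 1.8e-07), and the hairpins did not differ by the test (adjusted p = 0.352). ARHGAP27P1-BPTFP1-KPNA2P3, a transcript that joins 3 pseudogenes, fell by 0.92 (SE 0.081) in sh1 and by 0.70 (SE 0.080) in sh3 on the log2 scale. ENSG00000289609, the deepest fall in sh3, went from 18.03 to 22.9 CPM in shNC to 11.2 to 13.2 in sh1 and 8.62 to 10.9 in sh3, a log2 fall of 0.81 and 1.09. In all 3 of these members the controls lay above every sh1 and sh3 library. ENSG00000289850, the fifth highest member at a mean of 81.9 FPKM, also fell with both labels, from 57.9, 46.2 and 86.4 CPM in shNC to 35.2, 32.6 and 34.02 in sh1 and 46.1, 42.6 and 43.5 in sh3 (log2 -0.90 and -0.53, adjusted p = 0.00101 and 0.0345).

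The highest member by FPKM was LINC02582, at chr18:73324941-73349879, with 169 ± 38 FPKM (SD, n = 3) in shNC, 89.6 ± 3.9 in sh1 and 146 ± 3 in sh3. Its CPM was 426.5, 370 and 571 in shNC, 248, 235 and 258 in sh1 and 404, 385 and 391 in sh3. The sh1 values lay below both other groups, and the sh3 values lay within the range of the controls. The fall in sh1 was 1.85-fold (log2 fall SE 0.117; edgeR adjusted p = 8.02e-05), and sh3 was not called (adjusted p = 0.213). Replicate 3 of shNC was its highest library; without it the log2 change was -0.69 in sh1 and -0.019 in sh3, and without shNC replicate 2 sh3 was called lower (-0.34, adjusted p = 0.0229).

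LINC02582 shares sequence with 3 other members, found by BLASTN among the GENCODE 29 transcripts of the members, a comparison chosen after the values were seen. It matched ENSG00000260834 at 96.7% over 449 bases, ENSG00000250920 at 90.9% over 231 bases and LINC02474 at 88.0% over 167 bases. The search kept matches of at least 150 bases and 90% identity. LINC02474 fell short of that identity and was added by name, and other pairs below it were not listed. These genes lie on chromosomes 18, 16, 4 and 1. The longest run of bases common to all 4 was tgaaatttggt, 11 bases, which was also in 15 other lncRNA genes, 19 of 8093 in all (0.235%). Among these others were ESRG and LINC-ROR, RNAs known from pluripotent stem cells whose transcription is known to start in copies of the endogenous retroviral repeat HERV-H. ESRG was listed at a mean of 0.125 FPKM and LINC-ROR at 0.00142 FPKM.

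All 4 related members, with LINC02474 counted although it was below the identity cutoff, were called lower in sh1. In sh3, 2 of the 4 were called lower. Among all members, 39.4% were lower in sh1 and 25.3% in sh3, and among all genes tested 18.8% and 12.4%. ENSG00000250920, at chr4:103550586-103559277, had 219, 190 and 295 CPM in shNC, 85.2, 71.1 and 80.0 in sh1 and 152, 138 and 141 in sh3, without overlap. It was 2.98-fold lower in sh1 and 1.63-fold lower in sh3 (edgeR adjusted p = 1.72e-06 and 0.00137). LINC02474, at chr1:221966341-221984964, had 53.0, 46.6 and 62.0 CPM in shNC, 28.8, 26.3 and 28.5 in sh1 and 40.7, 36.2 and 36.8 in sh3. Its log2 fall was 0.95 and 0.51. ENSG00000260834 followed LINC02582 closely, with log2 changes of -0.90 and -0.21 against -0.89 and -0.21, and reads from the stretch they share could be counted to either gene, so its value is uncertain. In all 4 members the highest of the 9 libraries was shNC replicate 3. That library was also the highest for LINC02167, ENSG00000231412, ENSG00000262198 and ENSG00000289850, but not for MALAT1 or NEAT1. Of the 15 other genes with the run, 5 were tested; 1, LINC00882, was lower in sh1 (log2 -1.14, adjusted p = 5.76e-05) and 0 in sh3. The run was derived from the members themselves, so these counts are a description.

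**Figure D3:**
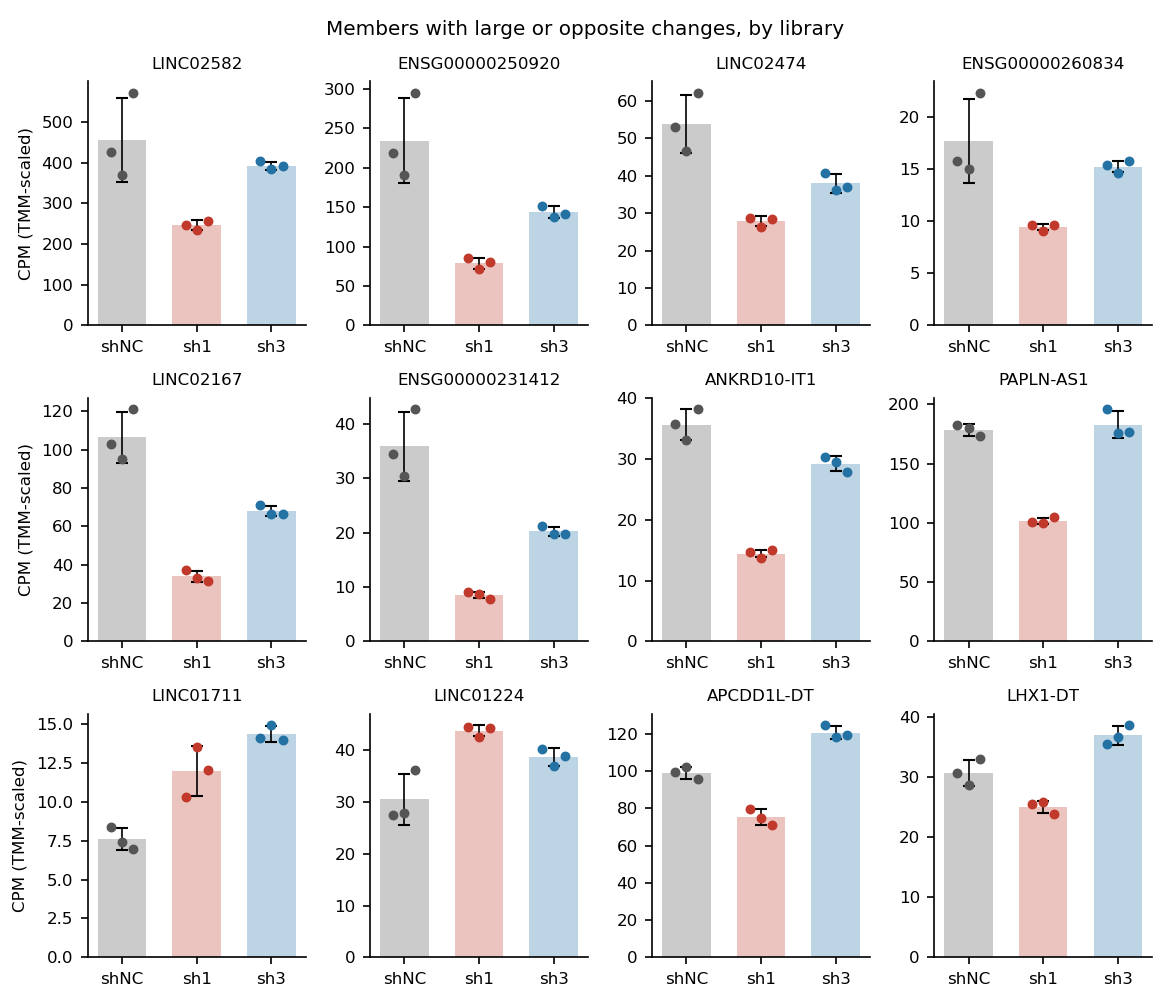
TMM-scaled CPM by library (points) with the mean (bar, from 0) and SD (line) of 3 libraries per label, for 12 members with large changes or changes of opposite sign. The first 8 fell in sh1, LINC01711 and LINC01224 rose with both labels, and APCDD1L-DT and LHX1-DT fell in sh1 and rose in sh3.

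Apart from the snoRNA hosts, 3 members with a symbol rose with both labels: LINC01711, LINC01224 and THAP9-AS1. LINC01711, at chr20:58634772-58635738, had 8.39, 7.40 and 7.00 CPM in shNC, 10.3, 13.5 and 12.0 in sh1 and 14.1, 14.9 and 13.98 in sh3. The controls lay below all sh1 and sh3 libraries. It was 1.57-fold higher in sh1 and 1.89-fold higher in sh3 (edgeR adjusted p = 0.000599 and 9.73e-05). LINC01224 had 27.5, 27.9 and 36.3 CPM in shNC, 44.6, 42.6 and 44.3 in sh1 and 40.3, 37.0 and 38.9 in sh3, a log2 rise of 0.52 and 0.34 (adjusted p = 0.000625 and 0.0145). THAP9-AS1 rose by 0.20 and 0.23 (adjusted p = 0.0253 and 0.0179). Of its exon bases, 10.96% lie over coding exons of SEC31A on the same strand, so its value is uncertain. SEC31A had a mean of 200.6 CPM in shNC, against 32.3 for THAP9-AS1. SEC31A rose by 0.202 on the log2 scale in sh1 (adjusted p = 0.00011) and was not called in sh3 (0.077, adjusted p = 0.0617). The part of SEC31A reads in the values of THAP9-AS1 was not tested. Of the rising members with a bare identifier, ENSG00000290058 was the most abundant, at a mean of 45.1 FPKM, and rose by 0.39 and 0.40 (adjusted p = 0.0175 and 0.0235). In sh3 alone, LINC02522 rose from 3.75 to 4.63 CPM in shNC to 5.10 to 6.70 (log2 0.48, adjusted p = 0.0315) and MIF-AS1, antisense to the cytokine gene MIF, from 23.5 to 30.0 CPM to 33.7 to 37.8 (log2 0.41, adjusted p = 0.00257). In sh1 LINC02522 and MIF-AS1 changed by 0.01 and 0.18 on the log2 scale, which did not pass the test. Several of these calls depended on the setting. LINC01224 in sh3 was not called without shNC replicate 1 (log2 0.28), shNC replicate 2 (0.28) or sh3 replicate 1 (0.31), nor LINC02522 without shNC replicates 1 (0.50) or 3 (0.40) or sh3 replicates 2 (0.48) or 3 (0.38). THAP9-AS1 lost its call in sh1 without shNC replicates 1 (0.21) or 3 (0.19) or sh1 replicates 1 (0.17) or 3 (0.21), and in sh3 without sh3 replicate 2 (0.17). In sh1 it also lost the call with library totals (adjusted p = 0.061) and with limma on log2(FPKM + 1) and log2(FPKM + 0.1) (adjusted p = 0.0708 and 0.0656), and LINC02522 lost its call in sh3 with no filter on low counts (adjusted p = 0.0535). MIF-AS1 was called higher in sh1 as well without shNC replicate 1 (0.28).

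Members called in opposite directions with the hairpins numbered 2 of 99 (2.02%). The share was 1.23% of all genes tested and 2.49% of genes of at least 5 FPKM, so the members' share is near the latter. APCDD1L-DT, divergent from APCDD1L, had 99.5, 102 and 95.8 CPM in shNC, 79.7, 74.9997 and 71.3 in sh1 and 125, 118 and 119 in sh3. LHX1-DT, divergent from the homeobox gene LHX1, had 30.7, 28.7 and 33.0 CPM in shNC, 25.5, 25.9 and 24.0 in sh1 and 35.6, 36.7 and 38.7 in sh3. In both genes the 3 groups did not overlap, with shNC in the middle. APCDD1L-DT changed by -0.40 in sh1 and 0.28 in sh3, and LHX1-DT by -0.29 and 0.26, on the log2 scale (edgeR adjusted p = 2.15e-05 and 0.000532, then 0.00241 and 0.00709). LINC00205 rose in sh3 (log2 0.38, adjusted p = 0.000718) and was not called in sh1 (-0.13, adjusted p = 0.122).

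Many lncRNAs share a promoter or a locus with a coding gene, and 22 members had a symbol that names such a partner (suffix AS, DT or IT). In sh1, 12 of the 22 members were called, in 10 pairs the partner was called too, and the direction was shared in 6 of these and opposite in 4. In sh3, 9 of 22 were called, 4 pairs had both called, 2 in the same and 2 in opposite directions. Among genes of at least 5 FPKM, 64.3% were called in sh1 and 48.7% in sh3, larger shares than those of these members, and among all genes tested 38.7% and 26.9%. ANKRD10-IT1, which lies within an intron of ANKRD10, was closest to its partner. It had 35.7, 33.1 and 38.2 CPM in shNC, 14.6, 13.8 and 15.0 in sh1 and 30.4, 29.5 and 27.9 in sh3. Its log2 fall was 1.30 in sh1 and 0.29 in sh3, against 1.35 and 0.13 for ANKRD10, and reads from unspliced ANKRD10 RNA would fall in the same intron.

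PAPLN-AS1, antisense to the matrix protein gene PAPLN, parted from its partner in sh3. It had 182, 180 and 173 CPM in shNC, 101, 99.8 and 105 in sh1 and 196, 176 and 177 in sh3. The sh1 values lay far below the others, and shNC and sh3 overlapped. Its log2 change was -0.81 in sh1 (edgeR adjusted p = 5.91e-08) and 0.03 in sh3 (adjusted p = 0.621), whereas PAPLN changed by -1.14 and -0.71. The difference between the pair was not tested.

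In OIP5-AS1 and BAIAP2-DT the member and its partner moved in opposite directions with both labels. OIP5, which loads the centromeric histone variant, rose by 1.07 in sh1 and 1.005 in sh3 on the log2 scale, beside the falls of OIP5-AS1 given above. BAIAP2-DT fell by 0.47 and 0.24, and BAIAP2, an adaptor of the actin cytoskeleton, rose by 0.32 and 0.22; the BAIAP2-DT call in sh3 was lost without shNC replicates 1 (-0.22) or 2 (-0.205) or sh3 replicates 1 (-0.18) or 3 (-0.23). LHX1 moved with LHX1-DT, by -0.27 and 0.79. APCDD1L fell with APCDD1L-DT in sh1, by 0.90, and was not called in sh3 (0.12). FGD5-AS1 rose in sh3 by 0.22 (edgeR adjusted p = 0.00252), while FGD5 had a mean of only 30.2 counts.

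**Figure D4:**
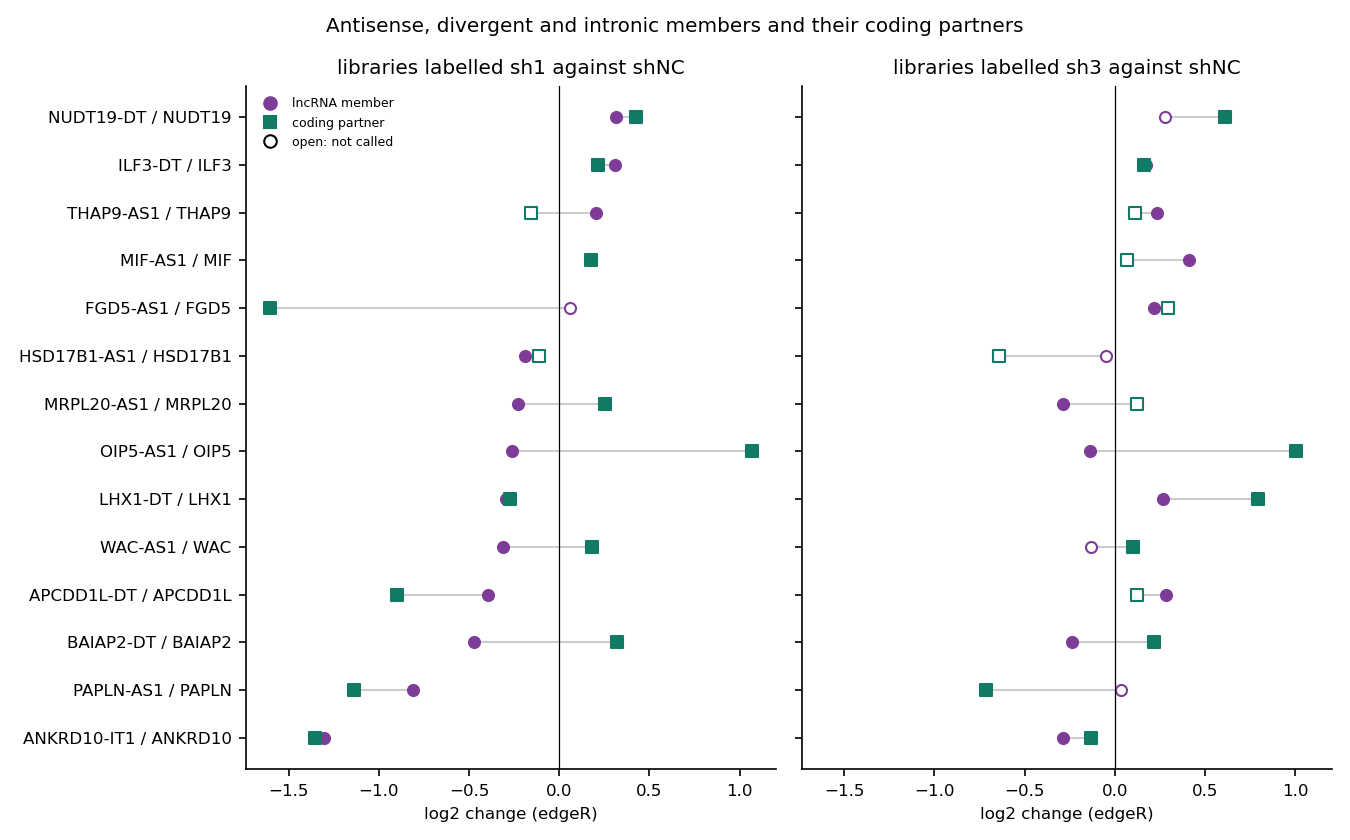
Log2 change against shNC of 14 lncRNA members (circles) and the coding gene named in their symbol (squares) in libraries labelled sh1 and sh3, for pairs whose member was called with at least 1 label; filled marks passed the edgeR test. ANKRD10-IT1 lies on its partner in sh1, and OIP5-AS1 and BAIAP2-DT lie on the other side of 0 from theirs in both panels.

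The spread between libraries of 1 group differed with what the members' exons overlap. Of the 99, 76 had under 10% of their exon bases over ribosomal RNA genes or coding exons of another gene (GENCODE 29 types KRT10-AS1 and SNHG32 as protein coding, and their own exons were not counted), 14 had at least 10% over coding exons of the opposite strand, 5 over coding exons of the same strand and 4 belonged to ribosomal RNA loci. The median within-group SD of log2 CPM was 0.10 in the first class, 0.12, 0.29 and 0.48 in the others, and the highest value in the first class was 0.34. The library kit marked strand, but no source states the strand setting of the counting, so reads of an antisense member and of its partner may not be told apart.

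The 4 ribosomal members, ENSG00000281181, ENSG00000280614, ENSG00000280800 and ENSG00000281383, lie on chromosome 21, have 923-base transcripts that are 99.6 to 100% identical, and 3 of them overlap RefSeq ribosomal RNA genes. They ranked among the 10 highest members by FPKM. ENSG00000281181 had 155, 125 and 105 CPM in shNC, 74.0, 94.2 and 179 in sh1 and 120, 158 and 87.1 in sh3. The groups overlapped fully, none of the 4 was called with either label, and their log2 CPM correlated at r = 0.998 or more with each other over the 9 libraries. Reads from copies this alike cannot be assigned to one of them, and they are best read as 1 measurement. Without them the members summed to 5854 to 6213 CPM in shNC, 4617 to 4704 in sh1 and 5013 to 5110 in sh3, still without overlap.

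Some single members over coding exons of the opposite strand also varied widely, while their class median was near that of members with little overlap. ENSG00000272540, with 69.6% of its exon over TUBB exons of the opposite strand, had 0.876, 1.25 and 8.83 CPM in shNC, 1.42, 3.52 and 43.55 in sh1 and 1.29, 5.47 and 9.04 in sh3. Its within-group SD of 1.99 on the log2 scale was the highest of the members, and its log2 change of 2.16 in sh1 did not pass the test (edgeR adjusted p = 0.18). ENSG00000258017, with 72.4% over TUBA1B, had 18.01, 18.6 and 20.8 CPM in shNC, 40.6, 86.8 and 44.0 in sh1 and 28.03, 33.9 and 63.4 in sh3. It was called higher with both labels (log2 1.58 and 1.13, adjusted p = 0.00184 and 0.0203), and so was TUBA1B (0.90 and 0.75), an abundant alpha tubulin. The sh3 call was lost without shNC replicates 1 (1.09) or 2 (1.11) or sh3 replicate 3 (0.70), and with limma on log2(FPKM + 1) (adjusted p = 0.0727) and log2(FPKM + 0.1) (0.0565). It matched ENSG00000258232, over TUBA1C, at 97.3% across 512 bases, so its value is uncertain. AGAP2-AS1 varied from 3.04 to 28.6 CPM without order by group, and SLX1A-SULT1A3, a readthrough transcript, from 7.00 to 44.6.

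**Figure D5:**
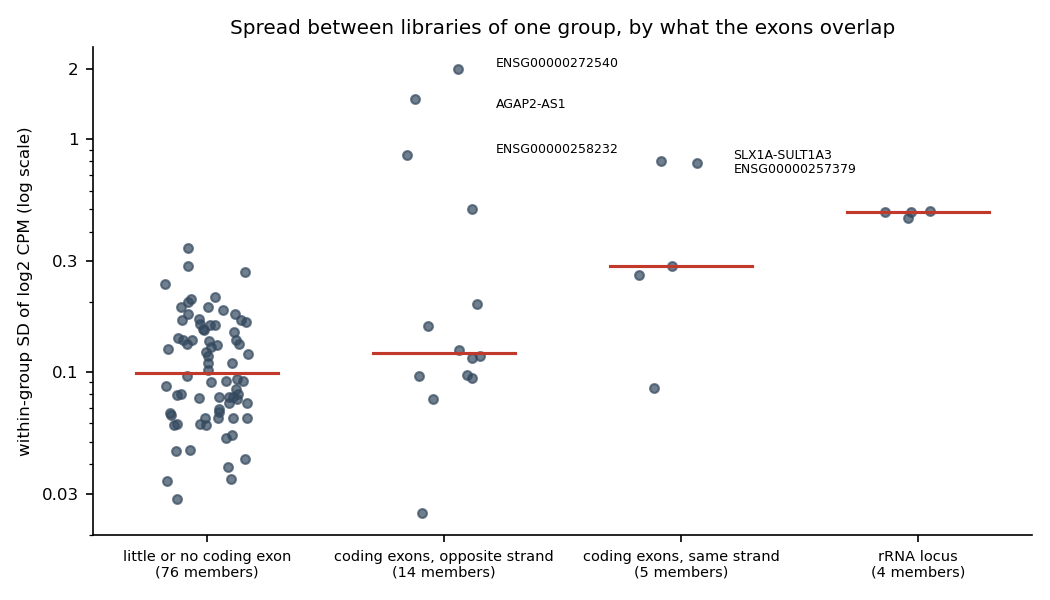
Within-group SD of log2 CPM (log axis; pooled over the 3 groups) of each of the 99 members, by what its exons overlap; red lines are class medians. The highest value, 1.99, is of a member over coding exons of the opposite strand, and members with little or no coding overlap stay at or below 0.34.

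The remaining lists were thinly filled. Of 54 cancer-associated lncRNAs, 7 were members: MALAT1, NEAT1 and HOXB-AS3 fell with both labels, GAS5 and THAP9-AS1 rose with both, and UCA1 and PTOV1-AS2 were not called. The value of THAP9-AS1 is uncertain through its overlap with SEC31A, given above. UCA1, named for urothelial carcinoma, had 31.4 to 33.9 CPM in shNC, 35.4 to 38.7 in sh1 and 29.7 to 35.3 in sh3. HOXB-AS3, antisense within the HOXB cluster, fell by 0.42 in sh1 (edgeR adjusted p = 0.000688) and by 0.22 in sh3 (adjusted p = 0.0497), and the sh3 call was lost whichever 1 of the 9 libraries was left out (log2 -0.26 to -0.14). Of 30 stress and hypoxia linked lncRNAs, 4 were members, and MIR22HG, the host of miR-22, was the one not named so far; it fell in sh1 by 0.19 (adjusted p = 0.0209) and was not called in sh3. That call was lost without shNC replicate 2 (-0.13) or sh1 replicates 2 (-0.17) or 3 (-0.18). MIR22HG was also the 1 member among 41 microRNA host genes. None of 23 immune and interferon linked lncRNAs reached 5 FPKM.

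The members with a symbol that varied least over the 9 libraries were PKD1P6-NPIPP1, HSD17B1-AS1 and HEIH. HSD17B1-AS1 had 24.2 to 24.96 CPM in shNC, 21.4 to 21.8 in sh1 and 23.1 to 24.2 in sh3, and its fall of 0.19 in sh1 was called (edgeR adjusted p = 0.00994). At the threshold, ENSG00000272667 and ENSG00000289047 were just inside at 5.11 and 5.09 FPKM, and ENSG00000287097 and NRAV just outside, both at 4.96. Of the 99 members, 17 had a mean under 5 FPKM in at least 1 group: 4 in shNC, 11 in sh1 and 5 in sh3. They passed the threshold through the level of the other groups. Of the 17, 8 were called in sh1 and 3 in sh3. Among all genes tested 38.7% were called in sh1 and 26.9% in sh3, and among genes of at least 5 FPKM 64.3% and 48.7%.

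Across the 9 libraries, the members most like GAS5 in log2 CPM were SNHG1 (r = 0.994), SNHG3 (0.971) and SNHG29 (0.890). Those most like NEAT1 were ENSG00000262198 (0.985), MALAT1 (0.964) and ENSG00000286546 (0.958), and those most like LINC01711 were SNHG32 (0.949), MIF-AS1 (0.873) and ENSG00000290058 (0.796). These correlations describe 9 libraries in 3 groups and share the group differences.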

How the data were processed

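The authors deposited 1 table of genes with counts and FPKM for each of the 9 libraries. Per the submitters' processing notes, cutadapt 1.9, HISAT2 2.2.1, StringTie 2.1.6 and the build GRCh38 were used; DESeq2 and edgeR are named there too. No source used here gives each tool's role or the strand setting. Deposited counts were tested with edgeR 4.0.16 (R 4.3.3): filterByExpr, TMM factors, 1 mean per group, quasi-likelihood F test and Benjamini-Hochberg adjustment over 21296 genes. Deposited FPKM chose the members and served, with limma 3.58.1, as an alternative. TMM raised the median log2 change over library totals by 0.037 in sh1 and 0.026 in sh3. Alternatives were DESeq2 1.42.0, library totals, no filter, a replicate block, only the 2 groups compared, log2(FPKM + 1), log2(FPKM + 0.1), each library left out, a log2 change of 1, a mean of 10 FPKM and, added after seeing the data, only members with under 10% coding or ribosomal overlap. The fit was tested on simulated counts. Exon overlaps and transcripts came from GENCODE 29 (88 of 99 members matched, and gene spans served for the others). Promoters came from RefSeq (34 of 99 matched, with members on chromosome 8 left out) and shared sequence from BLASTN 2.17.0.

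The members and lists were chosen with earlier results of these data known. Named were members with a symbol: the 10 highest by FPKM; up to 8 per direction called with both hairpins and not overlapping the controls; the 3 largest changes per hairpin and direction that also differed between hairpins; up to 3 per list and direction; the 3 most and least variable; 5 partner pairs; and those beside the threshold. Other members with bare identifiers, the other members of the lists and pairs, LHX1-DT, LINC00205 and the shared-sequence family were added after their values were seen. One member taken by the rule, and a motif search in transcripts, are not reported here.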

Additional observations from a re-analysis of the deposited data

Results flagged for a closer look

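APCDD1L-DT and LHX1-DT were flagged because they were called in opposite directions under the labels sh1 and sh3. The difference between the hairpins itself also passed the test. Such opposite calls were no more frequent among the members than among genes of at least 5 FPKM. The sh3 minus sh1 log2 change was 0.68 for APCDD1L-DT (edgeR adjusted p = 8.07e-07), with all 3 sh3 libraries above and all 3 sh1 libraries below the controls. It was 0.56 for LHX1-DT (adjusted p = 5.09e-05), with the same placing of all 6 libraries.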

How the results depend on the processing

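Under DESeq2, library totals, no filter, the 2 groups alone and limma on either FPKM scale, every count of called members stayed within 1.5 times its value, and so did the counts over members with little coding overlap. With a log2 change of at least 1, 1 member was higher and 7 lower in sh1, 1 higher and 2 lower in sh3, 1 higher and 1 lower with both, and 3 differed between the hairpins. At a mean of 10 FPKM, with fewer members entering, the counts were 5 and 22, 8 and 16, 4 and 15, and 15. Leaving out 1 library gave 14 to 19 higher and 34 to 38 lower in sh1, 12 to 19 and 20 to 24 in sh3, 6 to 12 and 17 to 21 with both, and 25 to 41 between hairpins; the 6 came without shNC replicate 1. Same-numbered libraries did not deviate together (9 correlations, -0.032 to 0.021), so no pairing by number was detected. These correlations run over all genes tested and cannot exclude a pairing. With the replicate block, 19 and 38 members were called in sh1 and 19 and 24 in sh3. The counts were 12 and 22 with both, and 33 between hairpins. None of 68 called gene results changed sign, and 15 lost the call in at least 1 setting, HOXB-AS3 in sh3 most often. A call was gained in 10 cases: HEIH in sh1 on both FPKM scales, CHASERR in sh1 and WAC-AS1 in sh3 with library totals, SNHG29 in sh3 with DESeq2, the replicate block and without shNC replicate 3 or sh3 replicate 2, LINC02582 in sh3 without shNC replicate 2 and MIF-AS1 in sh1 without shNC replicate 1. Sign changes were seen only in uncalled results, and their cause was not tested. LINC02522 in sh1 was -0.031 with library totals, -0.022 with FPKM + 1 and -0.023 with FPKM + 0.1. Leaving out 1 library moved LINC02522 in sh1 from -0.078 to 0.074, and in sh3 PAPLN-AS1 from -0.015 to 0.064, AGAP2-AS1 from -1.57 to 0.33, HEIH from -0.058 to 0.011, SNHG16 from -0.00311 to 0.087, MIR22HG from -0.096 to 0.017 and ENSG00000259017 from -0.23 to 0.036.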
